A study of Mus musculus with 8 samples.

Results

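Of 372 sites at which KAP1 was called in wild-type (WT) mouse embryonic fibroblasts (MEF, connective tissue cells grown from embryos), 207 shared no base with any H3K9me3 peak called in the same genotype. These 207 KAP1 peaks, 55.6% of the KAP1 list, are described here by their score, length and position, by their distance to peaks of H3K9me3 and H4K20me3, and by what was called at them in cells labelled as KAP1 knockout (KO). They were mostly weak and short peaks spread over the genome, with a median score of 79.4. Of the 207, 188 shared no base with a peak of either mark in either genotype, a share of 90.8% (exact 95% interval 86.0 to 94.4%). Over all KAP1 peaks it was 50.5% (188 of 372). The other 165 lay on WT H3K9me3 and gave 0 by the rule, so the difference between these shares is set in part by the rule. The members were chosen from the KAP1 list and the WT H3K9me3 list, so the absence of H3K9me3 from them is the rule and not a result.

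KAP1, also called TRIM28, does not bind a DNA sequence itself. KRAB zinc finger proteins bring it to their target sites, where it acts as a scaffold for the H3K9 methyltransferase SETDB1, for HP1 proteins and for histone deacetylases. H3K9me3 is the mark left by SETDB1 and is bound by HP1, which in turn recruits the enzymes that place H4K20me3, so KAP1 sites are best known as places of H3K9me3 heterochromatin, among them retrotransposons, zinc finger genes and imprinting control regions. KAP1 has also been mapped at sites without H3K9me3, gene promoters included.

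The series holds 8 samples of MEF, of which 5 are chromatin immunoprecipitation sequencing (ChIP-seq) libraries with a peak list and 3 are inputs, not analysed here. KAP1 was profiled in WT cells, and H3K9me3 and H4K20me3 were each profiled in WT and in KAP1 KO cells, with 1 library per group. The labels give no strain, embryo age, passage or way in which KAP1 was removed. No KAP1 list of KO cells was analysed, so whether a KAP1 peak itself is lost in KO was not measured, and the status of a site in KO means the histone marks called there.

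The lists held 372 KAP1 peaks, 14596 WT and 3176 KO H3K9me3 peaks, and 11295 WT and 8920 KO H4K20me3 peaks, in coordinates of build mm9. Read counts are not part of them, which leaves the depth of each library unknown, and a site without a peak is one at which none was called, not one shown to lack the mark. The score is the authors' own value for each peak, starts at or just above 50 in each list, and is used only to describe or rank peaks within a list. Intervals are exact (Clopper-Pearson) and cover counting error over peaks alone. Peaks of 1 library are not replicates, so values of KAP1 peaks without and with WT H3K9me3 are set side by side, and their differences were not tested.

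KAP1 peaks without WT H3K9me3 were weaker and shorter than the 165 that lay on it. Their scores ran from 50.1 to 793, with quartiles of 58.4 and 131 around the median of 79.4 (interval 71.2 to 87.6). On WT H3K9me3 the scores ran from 50.4 to 3100, with a median of 132 (interval 99.6 to 173). The 3 longest were 1472, 1283 and 1250 bp long and lay on chromosomes 5, 7 and 17. Lengths ran from 237 to 1472 bp with a median of 462 bp (interval 447 to 480 bp), against a median of 564 bp (interval 535 to 614 bp) and a highest length of 2549 bp on H3K9me3. Since the KAP1 list entered the rule, these values describe the members and are no test.

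The share of KAP1 peaks without WT H3K9me3 was 68.5% (98 of 143, interval 60.2 to 76.0%) for scores from 50 to 75 and 17.5% (7 of 40, interval 7.34 to 32.8%) for scores of 400 and above. The classes between them did not fall in steady steps, with 55.4% (31 of 56) from 75 to 100, 59.1% (52 of 88) from 100 to 200 and 42.2% (19 of 45) from 200 to 400. A strong KAP1 peak without called H3K9me3 was therefore rare in number but did occur. Score and length went together in both classes. At like scores the median lengths without and with H3K9me3 were close in the low classes, at 407.5 and 418 bp from 50 to 75 and 468 and 463 bp from 75 to 100. They were 510.5 and 553.5 bp from 100 to 200, 599 and 645 bp from 200 to 400, and 696 and 885 bp from 400 up. Spearman's rho across peaks was 0.65 for the 207 and 0.70 for the 165, both read from 1 library.

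**Figure D1:**
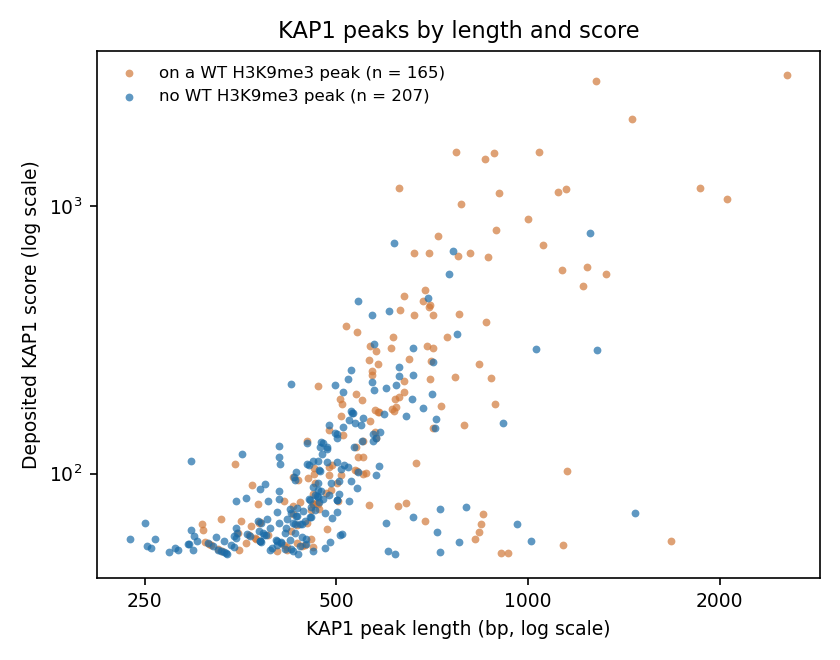
Each point is a KAP1 peak, with its length in bp (log scale) on the x axis and its deposited score (log scale) on the y axis, in blue without and in orange with a WT H3K9me3 peak. The 207 blue points reach a score of 793 and the 165 orange points 3100, and a few long peaks with scores below 100 lie to the right of the main band.

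The border set by the rule runs through closely placed peaks. Just inside it, 5 KAP1 peaks ended within 75 bp of a WT H3K9me3 peak. They lay on chromosome 4 (140379331 to 140380093, gap 23 bp), chromosome 7 (17470537 to 17471819, 1283 bp long, gap 46 bp), chromosome 1 (71916523 to 71917036, gap 49 bp), chromosome 7 (16850194 to 16850744, gap 62 bp) and chromosome 6 (133669272 to 133669720, gap 75 bp). Just outside it, the KAP1 peaks with the fewest bases on H3K9me3 shared 19 bp on chromosome 14 (12384593 to 12385105) and 34 bp on chromosome 5 (130163719 to 130164296).

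Of the 207, 15 lay within 1 kb of a WT H3K9me3 peak (7.25%), 37 within 10 kb (17.9%, where 54.3% of all KAP1 peaks, those on H3K9me3 included, were) and 107 within 100 kb (51.7%). The 15 nearest had a median KAP1 score of 136, against 75.1 for the other 192, and 2 of them had H3K9me3 within 1 kb on both sides. The H3K9me3 peaks beside them were weak, with scores from 50.5 to 147 and a median of 57.0, where the median of the whole WT list was 74.8. That list entered the rule, so these scores are a description and no test. Of these 15 H3K9me3 peaks, 1 shared a base with a KO H3K9me3 peak, where 3.10% of the whole WT list did.

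At the other end, the KAP1 peak farthest from WT H3K9me3 lay on chromosome 14 (3343932 to 3344280), 4.38 Mb from the nearest such peak, with a score of 59.7. The next were on chromosome 7 (38984349 to 38984757, score 55.6), at 4366 kb, and again on chromosome 14 (5297736 to 5298028, score 54.5), at 2430 kb. All 3 had scores near the lowest of the list.

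KAP1 peaks without H3K9me3 were found on each of chromosomes 1 to 19 and X, and 1 lay on the unplaced sequence Un_random (37825 to 38262, score 53.4). Chromosome 7 held the most, 21 of its 33 KAP1 peaks, followed by chromosome 14 with 20 of 23, and chromosome 16 held the fewest, 1 of 3. Among the 16 chromosomes with at least 10 KAP1 peaks, the share without H3K9me3 was highest on chromosome 14 (87.0%, interval 66.4 to 97.2%) and chromosome 18 (83.3%, 10 of 12, interval 51.6 to 97.9%). It was lowest on chromosome 8 (32.0%, 8 of 25, interval 14.9 to 53.5%) and chromosome 4 (36.4%, 4 of 11, interval 10.9 to 69.2%).

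Chromosomes 14 and 18 held 267 and 146 WT H3K9me3 peaks, while chromosomes 8 and 4 held 1225 and 1283. Because the rule uses the WT H3K9me3 list, a chromosome with fewer such peaks can be left with a higher share, and nothing is read from this. Chromosome 1 had 844 WT H3K9me3 peaks and a share of 70.6% (12 of 17), and chromosome 16 had 383 and a share of 33.3% (1 of 3). These numbers of peaks are not scaled to chromosome length, and a link between them and the share was not tested. On chromosome 14, 6 of the 20 lay in the first 10 Mb, where no KAP1 peak on H3K9me3 was called, and their scores ran from 51.2 to 152.

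**Figure D2:**
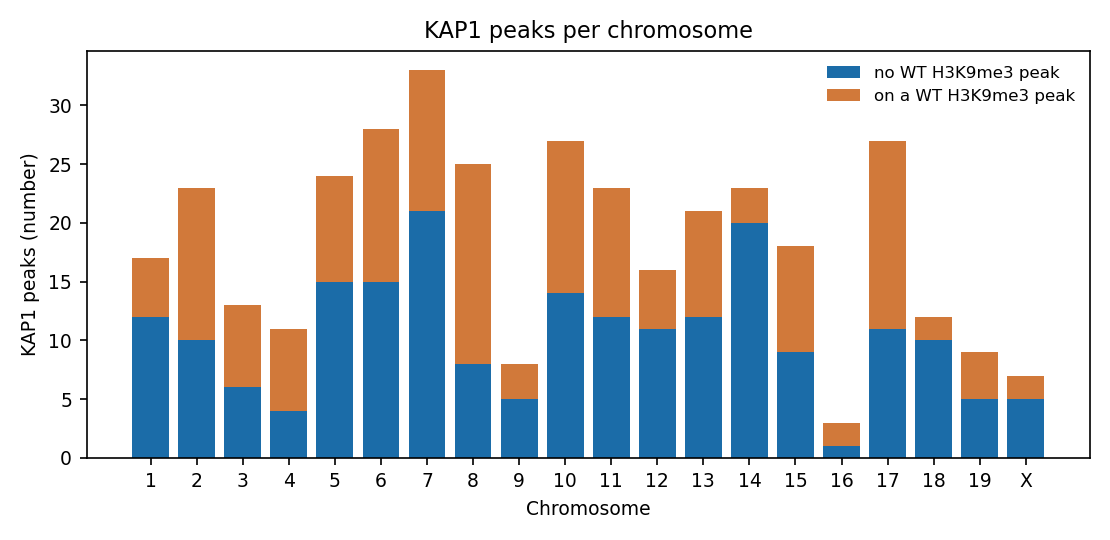
Bars give the number of KAP1 peaks on each of chromosomes 1 to 19 and X, split into those without (blue) and with (orange) a WT H3K9me3 peak. Blue makes up 20 of 23 peaks on chromosome 14 and 8 of 25 on chromosome 8.

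The 10 highest-scoring members had scores from 305 to 793. The first, on chromosome 17 (12934369 to 12935618, score 793), was 1250 bp long and shared 760 bp with a WT H4K20me3 peak (score 220.4) and 394 bp with a KO H4K20me3 peak (score 87.9). A WT H3K9me3 peak with a score of 50.5 lay 799 bp away from it, so the absence of H3K9me3 there is one of a base in common. The second, on chromosome 6 (116191965 to 116192579, score 730.3), was 189 kb from WT H3K9me3 and 21.5 kb from WT H4K20me3, and thus stood clear of both marks. The third was the chromosome 4 peak described above, 23 bp from H3K9me3, with a score of 680.2.

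The fourth lay on chromosome 7 (6140935 to 6141686, score 559). It shared 407 bp with a WT H4K20me3 peak, lay 393 bp from a WT H3K9me3 peak of score 51.7, and had no KO H4K20me3 peak nearer than 33.4 kb. Next came sites scoring 452 on chromosome 17 (from 23712925 to 23713620), 442 on chromosome 8 (from 114249950 to 114250490) and 406 on chromosome 7 (from 112767328 to 112767931). The last of the 10 lay on chromosome 18 (from 74524207 to 74524774), with 393, on chromosome 11 (from 74980258 to 74981030), with 333, and on chromosome 12 (from 3589944 to 3590515), with 305. Each of these 6 was at least 21.8 kb from WT H3K9me3, and the one on chromosome 18 was 567 kb from it. The one on chromosome 11 lay 546 bp from a WT and 442 bp from a KO H4K20me3 peak. In all, 3 of the 10 lay within 1 kb of WT H3K9me3 and 2 lay on WT H4K20me3. Of all 207 members, 7.25% and 5.8% did. Within 25 kb of WT H4K20me3 lay 8 of the 10. No share of all members is given at this distance, but 44 of the 207 lay within 10 kb and 94 within 50 kb. None of the 10 lay on KO H3K9me3, where 2.90% of all members did, so nothing is read from that count.

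H4K20me3 was seldom called at KAP1 peaks that lacked H3K9me3. In WT cells 12 of the 207 shared a base with an H4K20me3 peak, a share of 5.8% (interval 3.03 to 9.91%), where the whole KAP1 list gave 16.7% and the KAP1 peaks on H3K9me3 gave 30.3% (50 of 165, interval 23.4 to 37.9%). The order was the same in all 5 classes of KAP1 score. It was 6.12% without and 24.4% with H3K9me3 for scores from 50 to 75, 7.69% and 36.1% from 100 to 200, and 28.6% and 45.5% from 400 up, the last over 7 and 33 peaks. Within 10 kb, 44 of the 207 had a WT H4K20me3 peak (21.3%, interval 15.9 to 27.5%) and 70 of the 165 did (42.4%, interval 34.8 to 50.3%), while the whole list gave 30.6%.

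**Figure D3:**
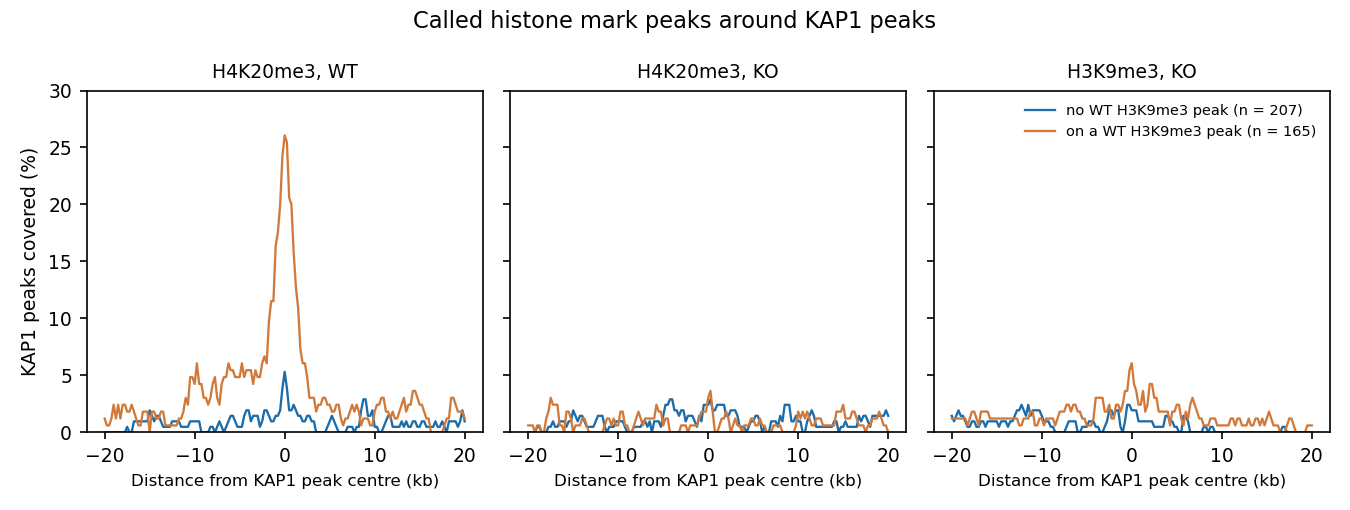
The y axis gives the percentage of KAP1 peaks whose position at a given distance from the peak centre (x axis, kb) lies in a called peak, for H4K20me3 in WT and KO and H3K9me3 in KO. At the centre, WT H4K20me3 covers 5.31% of the 207 KAP1 peaks without WT H3K9me3 (blue) and 26.1% of the 165 with it (orange), while KO H4K20me3 covers 2.42% and 3.03%.

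H4K20me3 called at or near these KAP1 peaks in WT cells was mostly called in KO cells too. Of the 12 members on WT H4K20me3, 8 also shared a base with a KO H4K20me3 peak. Counted as H4K20me3 peaks, 9 of the 13 at members shared a base with a KO peak (69.2%, interval 38.6 to 90.9%), a share near the 65.6% of the whole WT H4K20me3 list. Within 10 kb of a member 37 of 50 did (74.0%, interval 59.7 to 85.4%), and within 100 kb 227 of 315 did (72.1%, interval 66.8 to 76.9%). At KAP1 peaks on H3K9me3 the shares were 15.1% (8 of 53), 21.9% (28 of 128, interval 15.1 to 30.04%) and 49.9% (242 of 485, interval 45.4 to 54.4%).

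**Figure D4:**
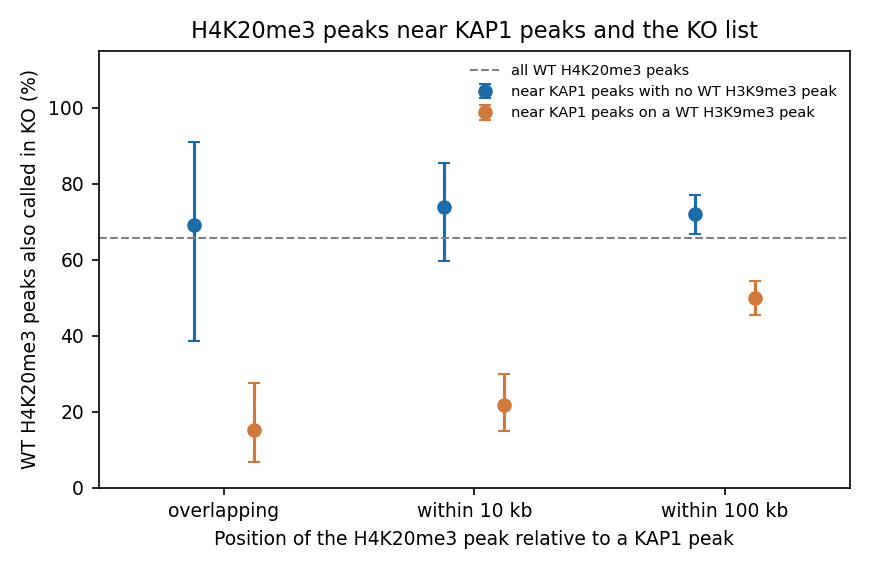
Points give the percentage of WT H4K20me3 peaks that share a base with a KO H4K20me3 peak, for peaks overlapping, within 10 kb of and within 100 kb of KAP1 peaks without (blue) and with (orange) WT H3K9me3, with exact 95% intervals as bars. The dashed line is the 65.6% of all WT H4K20me3 peaks, and the blue points lie at 69.2, 74.0 and 72.1%.

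The H4K20me3 peaks near both classes of KAP1 peak differed in whether they lay on H3K9me3 themselves. Within 10 kb of the 207 members, 1 of 50 WT H4K20me3 peaks lay on WT H3K9me3, while near the 165 others 92 of 128 did. Over the whole WT H4K20me3 list it was 1197 of 11295. The rule puts WT H3K9me3 at the 165 and keeps it off the 207, so this difference follows in part from the rule. On H3K9me3, 10 of those 92 were called in KO (10.9%, interval 5.34 to 19.1%) and the 1 near members was not, while all WT H4K20me3 peaks on H3K9me3 gave 7.52% (90 of 1197). Off H3K9me3, 37 of 49 near members were called in KO (75.5%, interval 61.1 to 86.7%) and 18 of 36 near the others (50%, interval 32.9 to 67.1%), while all WT H4K20me3 peaks off H3K9me3 gave 72.5%. Within 100 kb these shares were 80.1% (225 of 281, interval 74.9 to 84.6%) and 69.3% (230 of 332, interval 64.0 to 74.2%). H4K20me3 peaks on 1 stretch of chromatin are not independent of each other, which the intervals leave out.

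The 8 members with H4K20me3 in both genotypes had strong H4K20me3 peaks and mostly weak KAP1 peaks. Besides the chromosome 17 site above, they lay on chromosome 11 (69393572 to 69394084), chromosome 17 (4626026 to 4626611), chromosome 10 (126728225 to 126728647 and 62801795 to 62802210), chromosome 2 (121973127 to 121973471), chromosome 9 (103267570 to 103267848) and chromosome 13 (117813054 to 117813477). WT H4K20me3 scores at these 8 ran from 144 to 1429 with a median of 453, where that of the whole WT list was 163, and KAP1 scores had a median of 66.8. The highest was the second of the chromosome 17 sites, with a WT H4K20me3 score of 1429, a KO H4K20me3 score of 336 and a KAP1 score of 143. The site on chromosome 9, with a KAP1 score of 52.5, lay whole within H4K20me3 peaks of score 995 in WT and 679 in KO.

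The 4 members with H4K20me3 in WT alone had weaker H4K20me3 peaks. Their WT H4K20me3 scores ran from 68.8 to 129.9 with a median of 114, below the lowest score of 144 among the 8. They were the chromosome 7 site at 6140935 and sites on chromosome 10 (75355965 to 75356877, KAP1 score 155), chromosome 19 (11943157 to 11943870, KAP1 score 149) and chromosome 17 (56339257 to 56339593, KAP1 score 50.1). Their KAP1 scores had a median of 152. At the site on chromosome 10 the nearest KO H4K20me3 peak was 26.9 kb away, and at those on chromosomes 19 and 17 it was 42.2 kb and 15.8 kb away.

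In KO cells 9 of the 207 lay on an H4K20me3 peak (4.35%, interval 2.01 to 8.09%), near the 4.30% of the whole KAP1 list and the 4.24% (7 of 165) of KAP1 peaks on H3K9me3. With at least 50% of the KAP1 peak covered, the share was 2.16% (5 of 231). The 1 site with H4K20me3 in KO alone lay on chromosome 18 (13131427 to 13132456). It had a KAP1 score of 293 and shared 150 bp with a KO H4K20me3 peak of score 59.9, while the nearest WT H4K20me3 peak was 31.2 kb away. Within 10 kb, 40 of the 207 had a KO H4K20me3 peak (19.3%) against 32 of the 165 (19.4%), and the whole list gave 19.4%.

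H3K9me3 was called in KO at 6 of the 207 (2.90%, interval 1.07 to 6.20%), where the whole KAP1 list gave 4.30% and KAP1 peaks on WT H3K9me3 gave 6.06% (10 of 165, interval 2.94 to 10.9%). Restricted to members at least 10 kb from WT H3K9me3, it was 1.18% (2 of 170). The 6 sites carried 7 KO H3K9me3 peaks, none of which shared a base with a WT H3K9me3 peak. Over the whole KO list 86.4% shared none, and the rule keeps WT H3K9me3 off the member itself, so nothing is read from this count. The WT peak could lie close by, since on chromosome 7 (67040931 to 67041658) the KO peak lay 85 bp from a WT one.

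The strongest KO H3K9me3 peak at a member had a score of 368 and covered all 959 bp of a KAP1 peak on chromosome 8 (71998268 to 71999226, KAP1 score 64.8), with WT H3K9me3 1.37 kb away. On chromosome 5 (16973924 to 16975395, KAP1 score 71.2), the longest member of all at 1472 bp, a pair of KO H3K9me3 peaks of scores 76.8 and 170.5 covered 1272 bp, and WT H3K9me3 was 190.0 kb away. The others were a further site on chromosome 7 (66951691 to 66952170), a site on chromosome 15 (100883635 to 100884211) with 123 bp shared, and the site on Un_random with 87 bp shared. KAP1 scores at the 6 ran from 50.9 to 136 with a median of 59.1.

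Neither KO list had a peak at 192 of the 207 (92.8%, interval 88.3 to 95.9%), a share near the 92.2% of all KAP1 peaks and the 91.5% (151 of 165) of those on WT H3K9me3. No member lay on peaks of both marks in KO, and a count of 0 of 207 allows a share of up to 1.45%, taken as 3 counts of the total (the exact interval reaches 1.77%). Around the members, 7 had H3K9me3 within 10 kb in both genotypes, 30 in WT alone, 8 in KO alone and 162 in neither. For H4K20me3 these numbers were 35, 9, 5 and 158. Around the 165 KAP1 peaks on WT H3K9me3 they were 29, 41, 3 and 92 for H4K20me3. For H3K9me3 they were 17, 148, 0 and 0 there, where the rule itself sets the last 2 numbers to 0. Of all KAP1 peaks, 54.3% had WT and 8.60% KO H3K9me3 within 10 kb, and 30.6% had WT and 19.4% KO H4K20me3. The WT H3K9me3 peaks within 10 kb of members were called in KO in 7 of 56 cases (12.5%, interval 5.18 to 24.1%), against 3.10% of the whole WT list and 7.36% (31 of 421, interval 5.06 to 10.3%) near KAP1 peaks on H3K9me3. H3K9me3 peaks on 1 stretch of chromatin are not independent of each other, which these intervals leave out. Whether the shares differ was not tested. Of the 37 KO H3K9me3 peaks within 10 kb of members, 30 shared no base with a WT peak (81.1%, interval 64.8 to 92.0%), near the 86.4% of the whole KO list. Near KAP1 peaks on WT H3K9me3 it was 17 of 50 (34.0%, interval 21.2 to 48.8%), where the rule itself puts a WT peak close by.

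Distances to the nearest peak put members closer to H4K20me3 than to H3K9me3 in KO, and at like distances from both marks in WT. The median gap to WT H3K9me3 was 92.7 kb (interval 64.5 to 110 kb, quartiles 25.7 and 235 kb). To WT H4K20me3 it was 62.6 kb (interval 44.0 to 97.6 kb), and 110 of the 207 were nearer to H4K20me3 and 97 nearer to H3K9me3. The rule leaves out every KAP1 peak that shares a base with WT H3K9me3, while 12 members share one with WT H4K20me3. Setting the WT gaps of both marks side by side is therefore no test. In KO the median gap was 1021 kb to H3K9me3 (interval 822 to 1189 kb) and 62.7 kb to H4K20me3 (interval 48.0 to 91.4 kb), and 174 were nearer to H4K20me3. The lists differ in length, which bears on gaps. With the 3176 highest-scoring peaks of each histone list, 250 KAP1 peaks were without WT H3K9me3, and their medians were 394 kb to WT H3K9me3, 899 kb to KO H3K9me3, 260.2 kb to WT H4K20me3 and 204 kb to KO H4K20me3, the last pair over the 248 with an H4K20me3 peak on their chromosome.

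KAP1 peaks on WT H3K9me3 were nearer to H4K20me3, with median gaps of 18.0 kb in WT (interval 9.50 to 28.4 kb) and 31.2 kb in KO (interval 23.8 to 44.3 kb). To KO H3K9me3 their median gap was 806 kb (interval 620.0 to 983 kb). In the 10 kb on each side of a member, WT H4K20me3 peaks covered 194 bp on average, or 0.97% of this length, and KO H4K20me3 peaks 240.1 bp. Around KAP1 peaks on H3K9me3 they covered 1027 bp in WT and 151 bp in KO. Around KAP1 peaks on H3K9me3, covered H4K20me3 length was thus smaller in KO than in WT. Around members no direction is read from the averages, since a single member accounted for 9488 bp in KO, where the highest in WT was 2562 bp. Members with any H4K20me3 in these flanks numbered 42 in WT and 40 in KO.

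**Figure D5:**
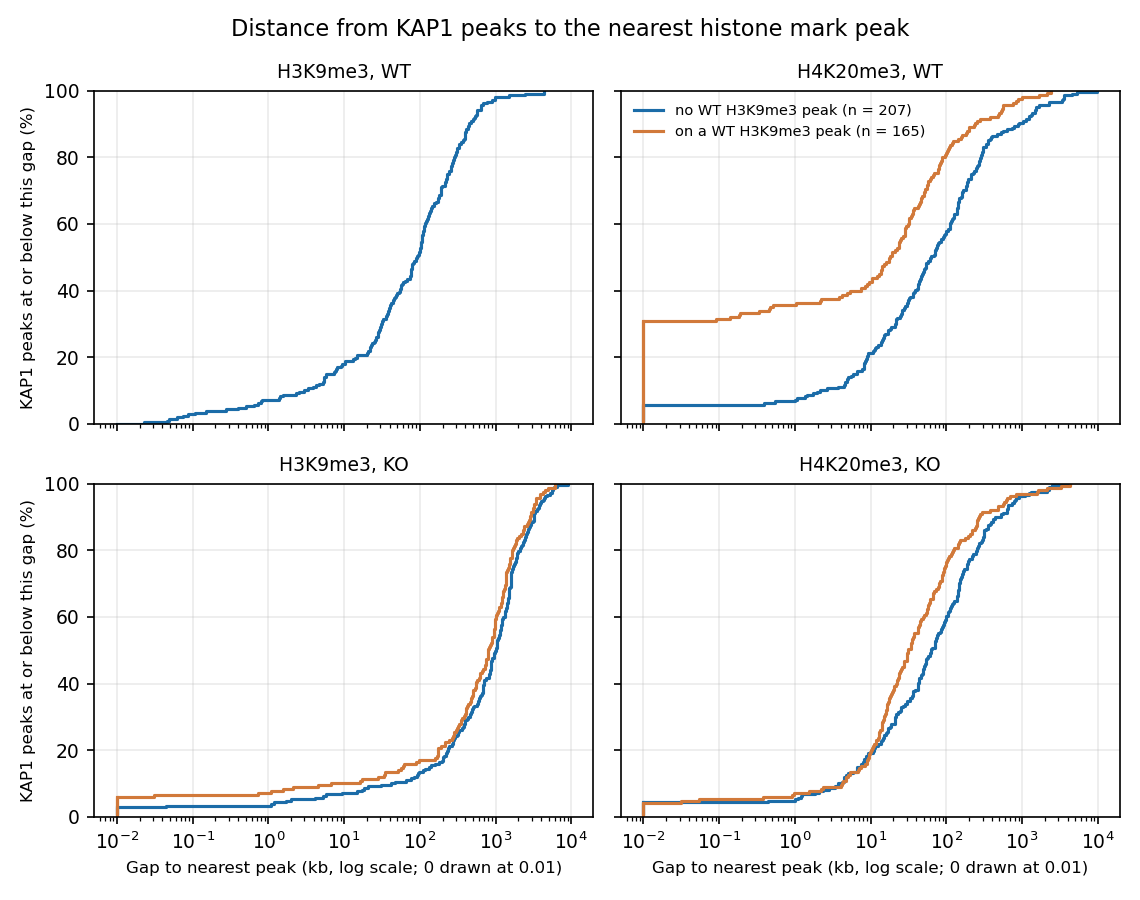
Curves give the percentage of KAP1 peaks (y axis) whose gap to the nearest peak of a list is at or below the value on the x axis (kb, log scale, with shared bases drawn at 0.01), in blue for the 207 without and in orange for the 165 with WT H3K9me3. The blue curves pass 50% at 92.7 kb for WT H3K9me3, 62.6 kb for WT H4K20me3, 1021 kb for KO H3K9me3 and 62.7 kb for KO H4K20me3. The orange curve is left out for WT H3K9me3, where the rule puts it at 0.

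Members within 10 kb of H4K20me3 in WT had higher KAP1 scores than the rest, with a median of 106 for the 44 (interval 82.3 to 149) and 71.7 for the other 163 (interval 65.6 to 80.1). Split by WT H3K9me3 at the same distance, the medians were 82.3 for 37 members near it (interval 68.8 to 129.7) and 79.2 for the other 170 (interval 68.8 to 87.6). The 15 members within 10 kb of KO H3K9me3 (7.25%, where the whole KAP1 list gave 8.60%) had a lower median of 55.6 (interval 52.2 to 71.7), but a longer median length of 602 bp against 458 bp for the other 192.

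Another KAP1 peak of either class lay within 100 kb for 34 of the 207 KAP1 peaks without H3K9me3 (16.4%, interval 11.7 to 22.2%), against 30 of 165 on H3K9me3 (18.2%, interval 12.6 to 24.9%) and 17.2% of all KAP1 peaks. Within 100 kb of a KAP1 peak on H3K9me3 were 12 members, and the median gap to such a peak was 4.87 Mb. There were 12 pairs of members within 100 kb of each other and no group of 3 or more, so 183 members had no other member that near. The closest were on chromosome 10 (80826603 to 80827884, scores 79.4 and 199), chromosome 11 (74979176 to 74981030, scores 81.8 and 333), chromosome 18 (74520015 to 74524774, scores 92.1 and 393) and chromosome 6 (52114219 to 52119101, scores 79.9 and 111). No histone peak of any of the 4 lists lay between the outer ends of these 4 pairs. They span only 1.28 to 4.88 kb, and 124 of the 207 members had no histone peak within 10 kb, so nothing is read from this.

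A pair on chromosome 7 stood in a stretch dense in H3K9me3 peaks. From 66951691 to 67041658 the members scored 52.6 and 50.9, and this stretch of 90.0 kb held 16 WT and 21 KO H3K9me3 peaks, 0 WT and 1 KO H4K20me3 peaks, with 2 KAP1 peaks on WT H3K9me3 within 100 kb. Across all 207, 37 had no histone peak of any of the 4 lists within 100 kb and 124 had none within 10 kb. KAP1 peaks on WT H3K9me3 gave 0 of 165 at both distances, since the rule puts a WT peak on each. The counts over all 372 KAP1 peaks are therefore the same 37 and 124, and the difference between the classes is no result.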

How the data were processed

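KAP1, H3K9me3 and H4K20me3 ChIP-seq peak lists of MEF were used as deposited. The submitters' processing notes name MACS 1.4, Bowtie2 2.2.1 and CASAVA 1.82, and build mm9. Per the file headers, the KAP1 call set 1 WT KAP1 library against 1 WT MEF library. For the histone calls, neither control nor parameters are stated by the labels or headers. The score of each peak is the authors' deposited value, with no unit stated. It tends to grow with depth and width, so no amounts are compared between lists.

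Members are KAP1 peaks with no base in common with a WT H3K9me3 peak. A gap is the number of bases between nearest ends on the same chromosome, and it is 0 where at least 1 base is shared. A WT peak counts as called in KO where it shares at least 1 base with a KO peak of the same mark. Positions count from 1. Gaps and shared bases were found in Python 3.11.15 (pandas 2.3.3, numpy 2.4.6), and all 1488 gaps equalled those from bedtools 2.31.1. On a simulated list the known gap or overlap was recovered for 265 of 265 KAP1 peaks. Exact 95% intervals of shares came from scipy 1.17.1, and those of medians from the binomial distribution of ranks. Figures were drawn with matplotlib 3.10.9.

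Each group has 1 library, so no replicate error or p-value could be given. The regions named are the 10 highest-scoring and 3 longest members, those on a WT H4K20me3, KO H3K9me3 or KO H4K20me3 peak, the 5 nearest to and 3 farthest from WT H3K9me3 and any groups of 3 or more within 100 kb. The pairs and the members on chromosome 14 were picked after their values had been seen. The members and lists were chosen with earlier results of these data known. The gene annotation at hand is of another build, so no genes, exons or sequences are given.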

Additional observations from a re-analysis of the deposited data

How the results depend on the processing

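The alternatives were at least 50% of the KAP1 peak covered, gaps of up to 1 kb counted as met, scores of 100 or more (all lists, or KAP1 alone), chromosomes 1 to 19 and X, equal numbers of highest-scoring histone peaks, and peaks within 5 kb merged. KAP1 scores below 100 and members at least 10 kb from WT H3K9me3 were added after the data had been seen. Of 99 values recomputed for 11 results, 78 stayed inside the interval of the value reported (for the number of members, within 1.5 times) and 21 did not. Some of the 21 were moved by the setting itself, such as the number and median score of members after a cut on KAP1 score. With scores of 100 or more in all lists, 95 of 173 KAP1 peaks were without WT H3K9me3, with a median score of 162, a median length of 551 bp, median gaps of 216 kb to WT H3K9me3 and 4588 kb to KO H3K9me3, and 10.5% with another KAP1 peak within 100 kb. Of the 95, 0 lay on KO H3K9me3, which allows a share of up to 3.16%, taken as 3 counts of the total (the exact interval reaches 3.81%). With a KAP1 score of at least 100, the number was 78 of 173, the median score 153, the median length 533 bp, the share with another KAP1 peak within 100 kb 10.3%, and the median gaps 39.3 kb to WT and 46.4 kb to KO H4K20me3. With KAP1 scores below 100, these were 129 of 199, 61.4, 424 bp and 10.1%. Under each limit on KAP1 score, neighbours were counted only among the KAP1 peaks left, so the limit itself can lower the share with another KAP1 peak within 100 kb. Equal numbers of histone peaks left 250 KAP1 peaks without WT H3K9me3, with median gaps of 394 kb to WT H3K9me3, 260.2 kb to WT H4K20me3 and 204 kb to KO H4K20me3. Members at least 10 kb from WT H3K9me3 had a median gap of 114 kb to it, which that limit itself raises. No paired analysis was possible because each group has 1 library.

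The depth of the libraries is unknown, and shares of 207 peaks that rest on 6 to 12 sites have wide intervals.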

Other observations

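Some long KAP1 peaks of low score lay to the right of the main band in the plot of score against length. The limits used here were chosen after that plot had been seen. Of the 33 members of at least 600 bp, 11 had scores below 100, and 8 of these 11 lay within 10 kb of a KO H3K9me3 peak, 3 of them on one. Within 10 kb of KO H3K9me3 were 7.25% of all 207 members and 8.60% of all KAP1 peaks. Of the 22 long members with scores of at least 100, 0 lay within 10 kb of KO H3K9me3. KAP1 peaks on WT H3K9me3 gave 9 of 11 and 2 of 61 for the same classes. The 8 sites were on chromosome 5 (16973924 to 16975395 and 14919905 to 14920684), chromosome 8 (71998268 to 71999226), chromosome 14 (7155064 to 7155791 and 7179979 to 7180580), chromosome 7 (67040931 to 67041658), chromosome 11 (3014341 to 3015060) and chromosome 1 (87405238 to 87405855). The chromosome 14 sites lay within a stretch of 25.5 kb, so the 8 are not independent of each other. WT H3K9me3 was within 10 kb at 4 of the 11.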
